A study of Mus musculus with 27 samples.

Results

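The comparison described here set mouse morulae of the siComb group against morulae of the siP300 group, 3 libraries each, 6 of the 27 libraries of the series. It asks what the combined injection added to the injection named for p300. All 55369 features of the count table entered, 55367 genes and 2 features of the retrovirus MERVL, and 19182 had enough counts to be tested. The libraries were assigned to groups by their sample labels.

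All embryos were wild-type. They were microinjected with siRNA at embryonic day 0.5, at the zygote stage, grown in KSOM medium and collected as morulae at E2.75, where E stands for embryonic day. Each library was made from a pool of about 15 to 20 embryos with a low-input kit that amplifies polyadenylated RNA. The groups used here are siComb, siP300, siKat6a, siKat6b and siControl, with 3 libraries each. The labels name the first group siComb and do not say which siRNAs it held. They also do not say whether the pools of a group came from separate days or matings, so p-values measure the spread between these libraries, which may be technical.

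As background, p300 (gene Ep300) and its relative CBP (gene Crebbp) are acetyltransferases that acetylate histones at enhancers and promoters and also acetylate other proteins. Kat6a and Kat6b belong to the MYST family of acetyltransferases and act on histone H3 within complexes that hold BRPF proteins. An injected siRNA directs cleavage of the matching mRNA in the cytoplasm, so its effect on RNA level can be read in the same libraries. At the morula stage the blastomeres compact, and the outer cells begin to turn into trophectoderm, the layer that later contributes to the placenta.

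The 6 libraries held 9161784 to 11991314 counts. Genes with at least 10 counts numbered 17009, 17369 and 16697 in the siComb libraries, against 17497, 17831 and 19124 in the siP300 libraries (two-sided exact permutation p = 0.1, the lowest value possible with groups of 3). Thinned to 9086237 counts each, they numbered 16621, 17146 and 16375 in siComb and 17097, 17794 and 18034 in siP300 (exact permutation p = 0.2), and siComb 2 then lay above siP300 1. The mitochondrially encoded genes took 5.14 ± 0.275% of counts in siComb and 5.84 ± 1.05% in siP300 (SD, n = 3 each, exact permutation p = 0.4). The same share was 2.27 ± 0.281% in siControl (SD, n = 3).

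The summed level of 12 blastomere markers was 3314 to 4509 CPM (counts relative to the library total) in siComb, against 5755 to 7508 CPM in siP300, and the groups did not overlap (exact permutation p = 0.1). The siControl libraries had a mean of 12015 CPM. Dppa3, an oocyte and early-embryo gene, made up 76.1% of that sum over the 6 libraries. It stood at 1922, 3021 and 2975 CPM in siComb and 4625, 5949 and 3565 CPM in siP300, without passing the test (log2 fold change -0.84 ± 0.25 SE, adjusted p = 0.129, edgeR quasi-likelihood test with Benjamini-Hochberg adjustment). Of the 12 blastomere markers, Sox2 alone was at 0 in all 6 libraries. None of the 11 tested was called between siComb and siP300, where 0.787% of all genes tested were.

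Markers of other cells did not separate siComb from siP300. Summed levels were 55.5 to 73.1 CPM in siComb and 55.2 to 113.7 CPM in siP300 for 12 cumulus and granulosa markers, led by Amhr2. They were 7.79 to 14.4 CPM in siComb and 5.13 to 14.3 CPM in siP300 for 8 oviduct and stromal markers, of which Col1a2 and Lum were at 0. They were 180.1 to 205.0 CPM in siComb and 148.0 to 273.7 CPM in siP300 for 8 blood and immune markers, led by Cd74, with Hbb-bs and Tyrobp at 0. The siControl means of these 3 lists were 14.6, 10.4 and 31.7 CPM. In pools of embryos, fewer cells of a type and less RNA per cell cannot be told apart.

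**Figure D1:**
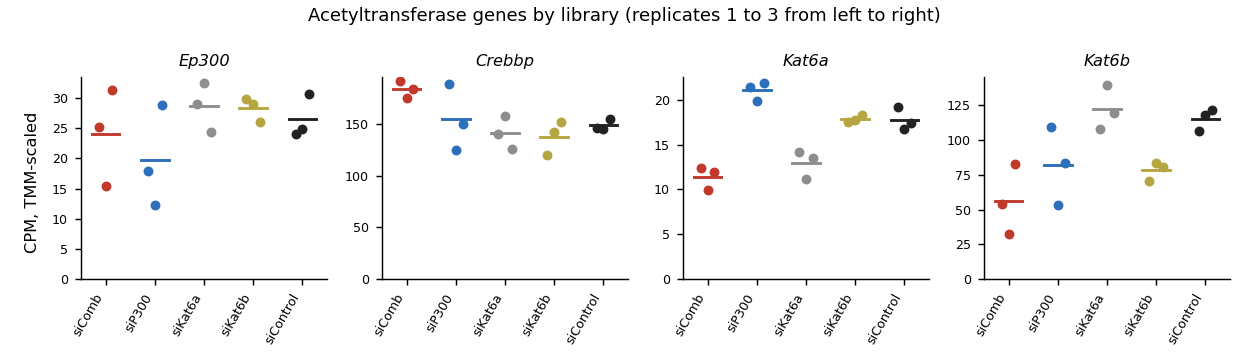
Level of Ep300, Crebbp, Kat6a and Kat6b in CPM scaled by TMM (vertical axis, linear, from 0) in the 3 libraries of each siRNA group, with points for libraries and bars for group means. Kat6a separates siComb from siP300, while Ep300 overlaps between siComb, siP300 and siControl.

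The targets of the injections were examined first. Ep300 (chr15:81585351-81652077, GRCm38) stood at 25.3, 15.4 and 31.3 CPM in siComb libraries 1 to 3 and at 17.9, 12.2 and 28.9 CPM in siP300 libraries 1 to 3. The siControl libraries held 24.1, 24.9 and 30.7 CPM, so siP300 3, siComb 1 and siComb 3 lay inside or above the siControl range. Ep300 did not differ beyond the spread between siComb and siP300 (log2 fold change 0.28 ± 0.29 SE, adjusted p = 0.742, edgeR quasi-likelihood test with Benjamini-Hochberg adjustment). It also missed the threshold against siControl in both groups, with log2 fold changes of -0.15 for siComb (edgeR adjusted p = 0.722) and -0.43 for siP300 (edgeR adjusted p = 0.259). The RNA level of Ep300 at collection therefore does not separate the libraries labelled siComb and siP300 from those labelled siControl, and this applies to every direction given below.

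Kat6a (chr8:22859535-22943259, GRCm38) held 12.4, 9.94 and 11.9 CPM in siComb and 21.4, 19.9 and 21.9 CPM in siP300. The libraries did not overlap, and the log2 fold change of -0.88 ± 0.20 SE lay just short of the threshold (adjusted p = 0.0532, edgeR quasi-likelihood test). It passed in 3 of 18 other settings, which gave adjusted p-values from 0.00357 to 0.399. Against siControl, where Kat6a averaged 17.8 ± 1.29 CPM, it was lower in siComb (log2 fold change -0.64, edgeR adjusted p = 0.022) and stood at 0.25 on the log2 scale in siP300 (edgeR adjusted p = 0.356). The siKat6a libraries held 14.1, 11.1 and 13.5 CPM, next to the siComb values. Their log2 fold change of -0.46 against siControl was not called in the edgeR test.

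Kat6b (chr14:21481434-21672478, GRCm38) held 54.0, 32.6 and 82.8 CPM in siComb and 109.4, 53.5 and 83.7 CPM in siP300, and the groups overlapped (log2 fold change -0.54 ± 0.27 SE, edgeR adjusted p = 0.41). Against siControl (115 ± 7.91 CPM) it was lower in siComb by a log2 fold change of -1.03 (edgeR adjusted p = 0.00819), while siP300 stood at -0.49 (edgeR adjusted p = 0.174). The siKat6b libraries held 70.5, 83.3 and 80.9 CPM and were not called against siControl (log2 fold change -0.56, edgeR adjusted p = 0.495). These comparisons share the siControl libraries and are given side by side. Crebbp (chr16:4081328-4213997, GRCm38) held 184 ± 8.16 CPM in siComb and 154 ± 32.5 CPM in siP300 (SD, n = 3 each) and was not called (log2 fold change 0.25, edgeR adjusted p = 0.555). No gene was called among 18 tested on a list of p300 and CBP partners, 30 of MYST complexes or 20 other acetyltransferases. Over all 19182 genes tested 0.787% were called between siComb and siP300, so lists of this size can hold none without differing from all genes.

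MERVL, a retrovirus transcribed in 2-cell embryos, split both groups by library. Its internal region, MERVL-int, held 63.5, 934 and 58.0 CPM in siComb and 137.9, 868.5 and 127.3 CPM in siP300. Library 2 of each group thus stood apart from its group, and no difference between the groups was detectable (log2 fold change -0.10 ± 0.99 SE, edgeR adjusted p = 0.98). The direction turned to 0.39, 0.40 and 1.41 on the log2 scale without siComb 1, siComb 3 and siP300 2, none of them past the threshold. MERVL_2A-int differed by -0.20 on the log2 scale (edgeR adjusted p = 0.818). None of the 28 tested genes on a list of 2-cell genes was called, where 0.787% of all genes tested were. Against siControl (28.5 ± 6.37 CPM), MERVL-int was higher by 3.6 on the log2 scale in siComb and 3.7 in siP300. Both were called (edgeR adjusted p = 0.0177 and 0.0167), in comparisons that share the siControl libraries. The siKat6b libraries were split too, at 960, 36.6 and 928 CPM.

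Of the 19182 genes tested, 98 were higher in siComb than in siP300 (0.511%) and 53 were lower (0.276%), 151 in all (0.787%). The test was edgeR's quasi-likelihood test with Benjamini-Hochberg adjustment and a threshold of 0.05 over 15 libraries of the siRNA family. At least 2-fold changes were found in 52 of the higher and 49 of the lower genes. The libraries did not overlap for 150 of the 151 genes. This is in part built in, since the genes were called from the same libraries. Of all genes tested, 15.5% did not overlap (7.92% in the higher and 7.61% in the lower direction). Unnamed gene models made up 28 of the 151. The median log2 fold change of all genes was -0.034. Scaling by library size alone moved it to -0.095 and gave 99 calls with 47.5% higher, against 64.9% higher with TMM scaling.

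Single libraries carried much of these counts. Without siComb 1 the counts were 15 higher and 11 lower, and without siP300 3 they were 15 higher and 27 lower. Without siComb 2 they were 36 and 35, and without siComb 3 there were 34 higher. Without library 2 of both groups, the libraries with high MERVL-int, 53 were higher and 45 lower. A fit of the 6 compared libraries alone called 0 genes with edgeR, although 1568 genes had an unadjusted p under 0.05, whereas DESeq2 called 618 and limma-voom 35 over the 15 libraries. The groups that share the fit did not vary equally in genes detected. Thinned to equal counts, the SD was 394 in siComb and 487 in siP300, against 39.3 in siControl (n = 3 each). Before thinning it was 336, 859 and 172, with siP300 3 holding the most counts. The part of this in the calls was not tested. All 151 genes kept their direction in every one of these settings in which they were tested.

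Of the 58 called genes named here, 9 kept their calls whichever of the 6 libraries was left out. These were Ctsa, Dpp7, Hexa, Tpi1, Phlda2 and Plp2 among the higher genes, and Laptm5, Hydin and the gene model Gm3776 among the lower ones. The other 49 lost the call in at least 1 such fit, 45 of them without siComb 1 and 44 without siP300 3.

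**Figure D2:**
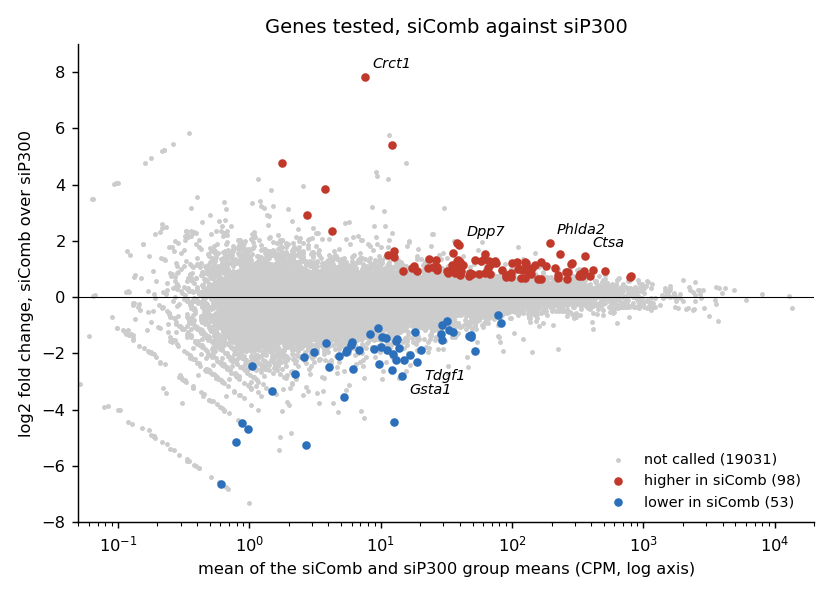
Each point is 1 of 19182 genes tested, with the mean of the siComb and siP300 group means in CPM on a log axis and the log2 fold change of siComb over siP300 on the vertical axis. The 98 higher genes (red) lie mostly at moderate and high levels, the 53 lower genes (blue) mostly at lower levels, and 19031 genes were not called (grey).

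Of the gene lists, the lysosome list held the most higher genes. The lists were written with earlier results of these data known, so their counts are descriptions and not independent support. Lysosomes are acidic organelles in which hydrolases break down proteins, lipids and sugar chains. Their acidity comes from the V-ATPase, a proton pump with a membrane sector (V0) and an ATP-splitting sector (V1), and genes for many of their proteins are controlled by the transcription factors TFEB, TFE3 and MITF. All 35 genes of a lysosome list were tested. Of these, 9 were higher in siComb and 0 lower, where 0.511% and 0.276% of all genes tested were called. Of the 35, 33 had a log2 fold change above 0, and their median was 0.57, beside -0.034 for all genes. The siComb and siP300 libraries did not overlap for 19 in the higher and 1 in the lower direction, beside 7.92% and 7.61% of all genes tested.

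The number of higher members was 3 without siComb 1, 3 without siComb 2, 4 without siComb 3 and 2 without siP300 3. It was 8 without siP300 1 and 7 without siP300 2, and 3 without library 2 of both groups. It was 7 with scaling by library size alone. Against siControl, the list's median log2 fold change was 0.65 in siComb and 0.13 in siP300, beside 0.093 and 0.13 for all genes tested, 2 comparisons that share the siControl libraries.

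Among the hydrolases, Ctsa (cathepsin A, a carboxypeptidase that also protects other lysosomal enzymes; chr2:164832873-164841032, GRCm38) had the smallest adjusted p of all genes. It held 620, 457 and 519 CPM in siComb and 196, 199 and 180 CPM in siP300, with a log2 fold change of 1.47 ± 0.16 SE (adjusted p = 0.000971, edgeR quasi-likelihood test). The siControl mean of 339 ± 50.2 CPM lay between them, and both differences from it were called, with log2 fold changes of 0.65 for siComb and -0.82 for siP300 (edgeR adjusted p = 0.00432 and 0.000937). Ctsa shares exon sequence with Neurl2 and Pltp on the opposite strand. The strand setting of the counts is not given in the sources used here, so reads in the shared stretches cannot be told apart. Neurl2 stood at 7.17, 7.66 and 10.4 CPM in siComb and 3.87, 6.85 and 2.15 CPM in siP300 and was not called (edgeR adjusted p = 0.287). Pltp stood at 58.3, 38.6 and 54.7 CPM in siComb and 24.4, 33.9 and 37.2 CPM in siP300 and was not called (edgeR adjusted p = 0.159).

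Dpp7, a dipeptidyl peptidase of lysosomes and vesicles (chr2:25352276-25356359, GRCm38), is not on the lysosome list. It held 78.7, 51.2 and 54.9 CPM in siComb and 19.19, 17.2 and 14.9 CPM in siP300. Its log2 fold change was 1.85 ± 0.23 SE (edgeR adjusted p = 0.00266), and the siControl mean of 28.5 ± 5.49 CPM again lay between the groups. The lowest siComb library was above every siP300 and every siControl library. Hexa, a subunit of beta-hexosaminidase, held 82.1, 94.5 and 139 CPM in siComb and 48.9, 45.0 and 43.5 CPM in siP300 (log2 fold change 1.20 ± 0.18 SE, edgeR adjusted p = 0.00913).

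The list's members described from here on were chosen after their values were seen. Ctsb (cathepsin B, a protease) lay above siControl in both groups. It held 436, 525 and 433 CPM in siComb and 253, 243 and 233 CPM in siP300, both above the siControl mean of 107 ± 12 CPM. The log2 fold change of siComb over siP300 was 0.94 ± 0.19 SE (edgeR adjusted p = 0.0354), and the call was lost without siComb 1, 2 or 3 or siP300 3 (edgeR adjusted p from 0.0522 to 0.0849). Exons of Hexa and Ctsb overlap Tmem202 and Fdft1 on the opposite strand, and neither of those genes was called.

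Mcoln1, a calcium channel of the lysosomal membrane, held 29.6, 24.8 and 19.3 CPM in siComb and 12.7, 10.6 and 11 CPM in siP300 (log2 fold change 1.10 ± 0.25 SE, edgeR adjusted p = 0.046). Its call was lost whichever library was left out, at adjusted p-values up to 0.169. Gpnmb, a membrane glycoprotein of lysosomes and melanosomes, held 73.3, 133 and 75.7 CPM in siComb and 27.9, 17.4 and 26.4 CPM in siP300, with 0.342 ± 0.423 CPM in siControl. The groups did not overlap, and the log2 fold change of 1.97 ± 0.45 SE lay just short of the threshold (edgeR adjusted p = 0.0511). Neu1, a sialidase, stood at 75.3, 104 and 81.3 CPM in siComb and 41.0, 40.0 and 36.6 CPM in siP300 without passing (edgeR adjusted p = 0.0733).

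The V-ATPase subunits were taken as a whole family by symbol after values had been seen. Of 28 such symbols, 22 were tested, 6 were higher in siComb and 0 lower, beside 0.511% and 0.276% of all genes tested. Log2 fold changes were above 0 for 17 of the 22, and their median was 0.35, beside -0.034 for all genes. Fits without a single library gave 0 to 4 higher members, with 0 when siComb 1, siComb 2 or siP300 3 was left out, and 4 were higher with scaling by library size alone. The 6 included Atp6v0d1 of the V0 sector, which held 277, 306 and 263 CPM in siComb and 160, 168 and 160 CPM in siP300 (log2 fold change 0.79 ± 0.15 SE, edgeR adjusted p = 0.024). They included Atp6v1d, Atp6v1b2 and Atp6v1c1 of the V1 sector, with log2 fold changes of 0.74, 0.69 and 0.66. The rest were the accessory proteins Atp6ap1 and Atp6ap2. The family shares members with the lysosome list, and Atp6v0d1 was already among that list's 9 higher genes, so the counts overlap.

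Atp6ap1 held 198, 207 and 169 CPM in siComb and 116, 65.4 and 95.9 CPM in siP300, with 38.0 ± 3.19 CPM in siControl (log2 fold change of siComb over siP300 1.05 ± 0.19 SE, edgeR adjusted p = 0.0247). Atp6ap2 held 439, 410 and 419 CPM in siComb and 247, 206 and 260 CPM in siP300, with 149 ± 5.64 CPM in siControl (log2 fold change 0.83 ± 0.16 SE, edgeR adjusted p = 0.0354). The lowest siComb library thus lay above the highest siP300 library for both. Among the members that missed the threshold, Atp6v1a, which splits ATP in the V1 sector, had a log2 fold change of 0.048.

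Lysosomal genes outside the list, named after their values were seen, included Scpep1 (a serine carboxypeptidase), Asah1 (acid ceramidase), Cln3 (a lysosomal membrane protein mutated in Batten disease) and Glmp (a lysosomal membrane glycoprotein). Their log2 fold changes were 0.90 for Scpep1, 0.98 for Asah1, 1.01 for Cln3 and 0.97 for Glmp, with edgeR adjusted p-values from 0.0215 to 0.039. Glmp held 153, 153 and 171 CPM in siComb and 90.9, 76.8 and 76.1 CPM in siP300, both below the siControl mean of 237 ± 2.37 CPM. Vps35 and Vps26a, subunits of the retromer that returns cargo from endosomes, were higher by 0.64 and 0.82 on the log2 scale (edgeR adjusted p = 0.0469 and 0.0328). Each of these 6 calls was lost in at least 3 of the 6 fits that left out a library. Vps35 held 214, 193 and 204 CPM in siComb and 132, 111 and 148 CPM in siP300.

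None of the 3 factors known to control lysosomal genes was called. Tfeb, named after its value was seen, held 18.9, 22.5 and 23.8 CPM in siComb and 34.3, 58.2 and 30.6 CPM in siP300. The groups did not overlap, and Tfeb missed the threshold in the lower direction (log2 fold change -0.92 ± 0.24 SE, edgeR adjusted p = 0.0837). Tfe3 had a log2 fold change of 0.22 ± 0.30 SE (edgeR adjusted p = 0.816) and turned to -0.027 without siP300 2. Mitf was present at 2.59 CPM in siComb and 2.06 CPM in siP300.

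**Figure D3:**
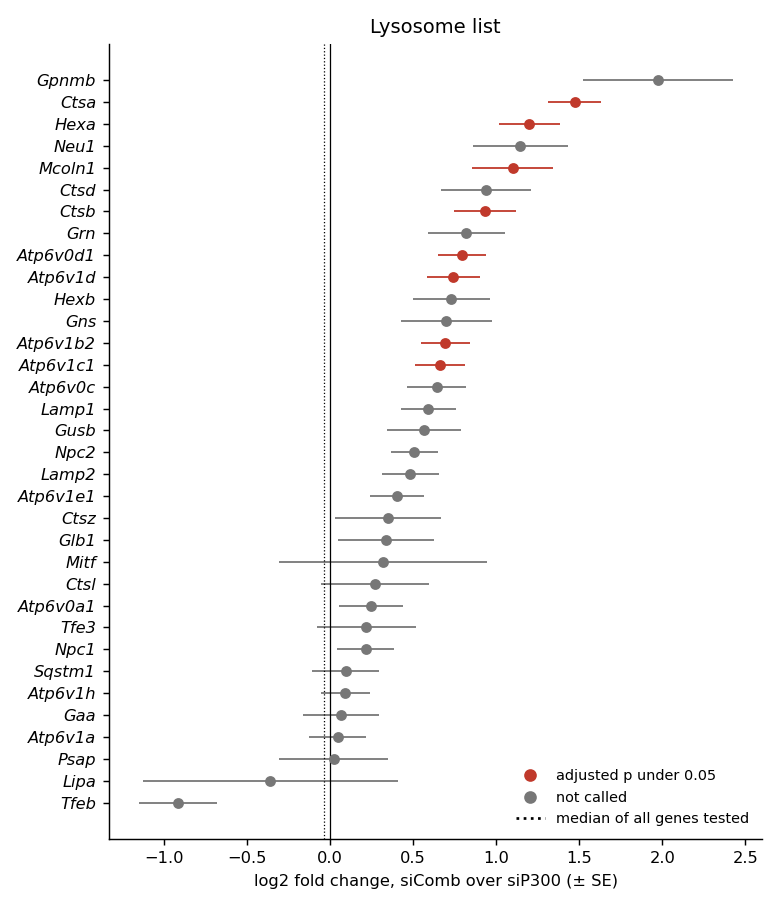
Log2 fold change of siComb over siP300 (horizontal axis, with SE bars) for 34 of the 35 genes of the lysosome list, with called genes in red and others in grey. The dotted line marks the median of all genes at -0.034, and 32 of 34 points lie right of 0.

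The promoters of the higher genes were searched for the core letters that TFEB and related factors are known to bind, a search chosen after values had been seen. CACGTG reads the same on both strands. TCACGTG and CACGTGA are each other's reverse complement, so a match to either was counted once on both strands, and every such match contains CACGTG. Promoters were the RefSeq windows of 300 bases, 250 before and 50 after an annotated start (GRCm38.p6), and a gene counted when any of its windows held a match. CACGTG was found for 19 of 70 higher genes with a promoter in the table (27.1%), 2 of 36 lower genes (5.56%), 1414 of 13101 genes tested (10.8%) and 2187 of all 27025 genes with a promoter (8.09%). TCACGTG or CACGTGA was found for 15 of 70 higher genes (21.4%), 2 of 36 lower genes (5.56%), 830 of 13101 genes tested (6.34%) and 1160 of 27025 in all (4.29%). The lysosome list held it for 8 of its 27 genes with a promoter (29.6%). The 2 lower genes were Mael and Mov10l1, described below.

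Stretches of 30 bases around the first match are shown for 5 higher genes of the lysosome and the retromer. They were picked from the 15 higher genes with a match, to let the core be seen beside its differing flanks. They do not show how common the full TCACGTGA is. They are written 5′ to 3′ along the gene's strand, with the match in capitals. The Dpp7 stretch is chr2:25356388-25356417 on the minus strand, its match beginning 74 bases before the start. The Ctsa stretch is chr2:164833749-164833778 on the plus strand, its match beginning 13 bases before an annotated start, and the stretch overlaps an annotated Ctsa exon. The Mcoln1 stretch is chr8:3500436-3500465 on the plus strand, its match beginning 72 bases before a start, and the stretch overlaps an annotated Mcoln1 exon. The Atp6v0d1 stretch is chr8:105566050-105566079 on the minus strand, its match beginning 4 bases before the start. The Vps26a stretch is chr10:62486970-62486999 on the minus strand, its match beginning 183 bases before the start.
Dpp7: ccgccagactaTCACGTGAtgctgccccgc
Ctsa: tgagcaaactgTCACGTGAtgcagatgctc
Mcoln1: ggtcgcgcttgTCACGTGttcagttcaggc
Atp6v0d1: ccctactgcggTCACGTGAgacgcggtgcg
Vps26a: cgcacggctcgTCACGTGAcaactagctct

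The stretches of Dpp7, Ctsa, Atp6v0d1 and Vps26a hold the full TCACGTGA, and that of Mcoln1 holds TCACGTG. Among the higher genes not shown, TCACGTGA was the first match only in a window of Cuta. The others, the lysosomal gene Cln3 among them, had TCACGTG or CACGTGA there. Another window of Vps26a had TCACGTG as its first match. A match describes letters in these windows and was not tested as a binding site.

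The next group among the higher genes was glycolytic, again from a list written with earlier results known. Glycolysis turns glucose into pyruvate, and the mouse embryo takes up more glucose as it approaches the blastocyst stage. Of 29 tested genes on a list of glycolysis and pyruvate genes, 4 were higher in siComb and 0 lower, beside 0.511% and 0.276% of all genes tested. Log2 fold changes were above 0 for 26 of the 29, with a median of 0.44 against -0.034 for all genes, and 9 had libraries that did not overlap in the higher direction (7.92% of all genes tested). Fits without a single library called 1 to 4 of them, with 1 when siComb 1 or siP300 3 was left out and 2 when siComb 2 or siComb 3 was.

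Slc2a3 (GLUT3, a glucose transporter; chr6:122727809-122801640, GRCm38) held 311, 335 and 381 CPM in siComb and 182, 64.0 and 111 CPM in siP300. Its log2 fold change was 1.52 ± 0.30 SE (edgeR adjusted p = 0.0354), lost without siComb 1, 2 or 3 or siP300 3 (edgeR adjusted p from 0.053 to 0.0891). The siControl mean of 219 ± 24.2 CPM lay between the groups. Tpi1 (triosephosphate isomerase) held 76.8, 109 and 98.0 CPM in siComb and 45.9, 29.9 and 39.7 CPM in siP300, both above the siControl mean of 18.6 ± 2.79 CPM. Its log2 fold change of siComb over siP300 was 1.30 ± 0.21 SE (edgeR adjusted p = 0.0121), and it kept its call without any single library.

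Eno1 (enolase) held 352, 502 and 339 CPM in siComb and 186, 171 and 157 CPM in siP300 (log2 fold change 1.22 ± 0.23 SE, edgeR adjusted p = 0.0253). Ldha (lactate dehydrogenase A), named after its value was seen, held 278, 223 and 204 CPM in siComb and 89.7, 137 and 69.4 CPM in siP300, with 31.6 ± 1.06 CPM in siControl (log2 fold change 1.25 ± 0.26 SE, edgeR adjusted p = 0.0402). Eno1 lost its call without siComb 1, siComb 2 or siP300 3, and Ldha in 5 of the 6 fits, keeping it without siP300 2. Pgk1, also named after its value was seen, missed the threshold at 165, 169 and 163 CPM in siComb and 91.9, 88.8 and 63.3 CPM in siP300 (edgeR adjusted p = 0.0648). None of the 73 nuclear genes of the respiratory chain was called, where 0.787% of all genes tested were. Their median log2 fold change was 0.022, beside -0.034 for all genes.

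**Figure D4:**
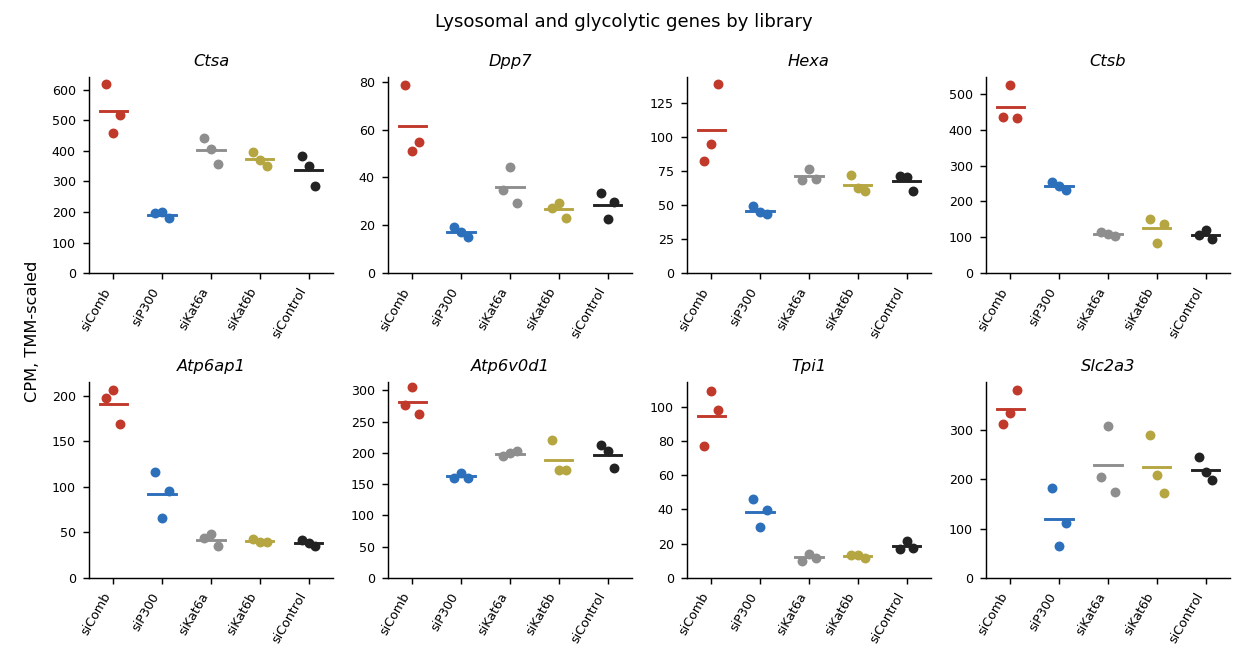
Level in CPM scaled by TMM (vertical axes, linear, from 0) of 8 lysosomal and glycolytic genes in the 3 libraries of each siRNA group, with bars for group means. For each gene the 3 siComb points lie above the 3 siP300 points, while siControl lies between them for Ctsa, Dpp7, Hexa, Atp6v0d1 and Slc2a3 by group mean and below both for Ctsb, Atp6ap1 and Tpi1.

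Of 34 tested imprinted genes, which are expressed from 1 parental allele, 3 were higher and 0 lower in siComb, beside 0.511% and 0.276% of all genes tested. Phlda2, a maternally expressed gene that restrains placental growth (chr7:143501545-143503150, GRCm38), held 295, 338 and 283 CPM in siComb and 49.3, 121 and 74.0 CPM in siP300. Its log2 fold change was 1.91 ± 0.27 SE (edgeR adjusted p = 0.00582), and siControl held 24.5 ± 4.98 CPM. The lowest siComb library was above the highest siP300 library, and both groups were above siControl. Impact, a regulator of the kinase GCN2, held 455, 398 and 318 CPM in siComb and 140, 190 and 190 CPM in siP300, with 34.7 ± 2.22 CPM in siControl (log2 fold change of siComb over siP300 1.17 ± 0.19 SE, edgeR adjusted p = 0.0121). The call of Impact was lost without siComb 1 (edgeR adjusted p = 0.0541).

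Slc38a4, an amino acid transporter, was the third imprinted gene and stood on the other side of siControl. It held 17.9, 17.7 and 22.6 CPM in siComb and 11.2, 8.92 and 10.5 CPM in siP300, both below the siControl mean of 52.8 ± 3.91 CPM (log2 fold change 0.92 ± 0.20 SE, edgeR adjusted p = 0.0444, lost in all 6 fits without 1 library). Over the 34 tested imprinted genes the median log2 fold change was 0.15, beside -0.034 for all genes, and 21 lay above 0. Without siComb 1 the number of higher imprinted genes was 1.

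Genes of the early lineages were called in both directions. Of 51 tested trophectoderm genes, 2 were higher and 2 lower in siComb, and of 26 primitive endoderm genes 1 was higher and 1 lower. Of all genes tested, 0.511% were higher and 0.276% lower. Cubn is on both lists and was counted as lower in each. Cldn6, a claudin of tight junctions in embryonic epithelia, held 167, 189 and 168 CPM in siComb and 80.3, 79.9 and 62.5 CPM in siP300, with 23.4 ± 4.24 CPM in siControl (log2 fold change 1.23 ± 0.21 SE, edgeR adjusted p = 0.0162). Cubn (cubilin, an uptake receptor of the outer cells and of endoderm) held 5.38, 5.17 and 8.09 CPM in siComb and 22.6, 12.7 and 29.3 CPM in siP300, with 48.4 ± 8.02 CPM in siControl. It was lower in siComb by a log2 fold change of -1.80 ± 0.31 SE (edgeR adjusted p = 0.0163). The call of Cldn6 was lost without siP300 3 (edgeR adjusted p = 0.0516), and that of Cubn without siComb 1 or siP300 3 (edgeR adjusted p = 0.0694 and 0.0513).

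Tspan8, a tetraspanin on the trophectoderm list, held 1.44, 4.97 and 8.47 CPM in siComb and 21.2, 17.9 and 20.9 CPM in siP300, with 72.7 ± 1.17 CPM in siControl. It was lower in siComb (log2 fold change -2.02 ± 0.41 SE, edgeR adjusted p = 0.0354). Exons of Cubn and Tspan8 overlap the gene models Gm13270 and 4930422I22Rik on the opposite strand, both of which were also called lower. Reads in the stretches that such pairs share cannot be told apart. Sparc, a matrix glycoprotein of parietal endoderm, held 179, 118 and 160 CPM in siComb and 82.8, 60.4 and 48.3 CPM in siP300 (log2 fold change 1.25 ± 0.28 SE, edgeR adjusted p = 0.0445). Tspan8 and Sparc each lost the call in 4 of the 6 fits without 1 library, Tspan8 without siComb 1, siComb 2, siP300 1 or siP300 3 and Sparc without siComb 1, siComb 3, siP300 2 or siP300 3.

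Of 34 tested pluripotency genes, Tdgf1 alone was called, as lower, beside 0.276% lower and 0.511% higher of all genes tested. Tdgf1 (Cripto, a co-receptor of NODAL; chr9:110939603-110946158, GRCm38) held 4.84, 6.76 and 7.51 CPM in siComb and 58.9, 27.6 and 7.51 CPM in siP300. The highest siComb library was level with siP300 3, which stood far below the rest of its group, while siControl held 28.3 ± 4.97 CPM. Its log2 fold change was -2.29 ± 0.48 SE (edgeR adjusted p = 0.0402), and the call was lost without siComb 1, 2 or 3 or siP300 1 (edgeR adjusted p from 0.0781 to 0.143). Otx2, a homeobox gene of the epiblast that was named after its values were seen, had 44, 58 and 119 counts in siComb and 14, 2 and 0 counts in siP300, against 52, 38 and 74 counts in siControl (edgeR adjusted p = 0.0469 for siComb against siP300, lost in 5 of 6 fits without 1 library).

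Other higher genes of large fold came from several functions. Crct1, an epidermal gene, had 364, 56 and 76 counts in siComb and 0, 0 and 2 counts in siP300, with 0 counts in each of the siKat6a, siKat6b and siControl libraries (edgeR adjusted p = 0.0163). Most of its siComb counts came from siComb 1, and the call was lost without siComb 1 or siP300 3 (edgeR adjusted p = 0.0717 and 0.0513). Trf (transferrin, the iron carrier) held 68.9, 57.1 and 53.5 CPM in siComb and 7.56, 14.7 and 25.4 CPM in siP300, with 0.278 ± 0.112 CPM in siControl (log2 fold change 1.91 ± 0.42 SE, edgeR adjusted p = 0.0432, kept without siP300 3 and lost in the other 5 fits). Plp2, a proteolipid of the endoplasmic reticulum membrane, held 95.8, 62.4 and 117 CPM in siComb and 36.4, 35.1 and 23.5 CPM in siP300 (log2 fold change 1.54 ± 0.22 SE, edgeR adjusted p = 0.0061).

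The siControl mean of Plp2 was 127 ± 8.62 CPM, so siComb was the nearer of the groups to it. Plp2 overlaps Prickle3 on the opposite strand, which was also called higher (log2 fold change 1.43, edgeR adjusted p = 0.0344). Reads in the stretch they share cannot be told apart. Lgals3 (galectin-3, a lectin that gathers on damaged lysosomes), named after its value was seen, held 178, 244 and 196 CPM in siComb and 78.6, 128 and 71.4 CPM in siP300 (log2 fold change 1.16 ± 0.25 SE, edgeR adjusted p = 0.0432). Its call was lost in 5 of the 6 fits without 1 library, all but that without siP300 2.

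Lists of growth and stress genes held 2 called members at most, where 0.511% of all genes tested were higher. Of 32 tested S-phase genes, Ccne1 (cyclin E1) and Rrm2 (a ribonucleotide reductase subunit) were higher, by 1.10 and 0.75 on the log2 scale (edgeR adjusted p = 0.039 and 0.0444). Ccne1 held 229, 306 and 204 CPM in siComb and 151, 88.8 and 104 CPM in siP300. None of the 32 G2/M genes was called. Chordc1, a co-chaperone of HSP90, was the 1 higher gene of 29 heat shock genes (log2 fold change 0.78, edgeR adjusted p = 0.046). Cebpg, a transcription factor of the amino acid response, was the 1 higher gene of 36 in the integrated stress response (log2 fold change 1.04, edgeR adjusted p = 0.046). The calls of Rrm2 and Cebpg were lost in all 6 fits without 1 library, that of Chordc1 in 5 and that of Ccne1 in 4.

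No gene list held more than 2 of the lower genes. Of 43 tested germline genes, 2 were lower and 1 higher in siComb, beside 0.276% lower and 0.511% higher of all genes tested. Both lower ones act in the piRNA pathway, which guards the germline against transposons. Mael (maelstrom) held 20.98, 19.5 and 38.5 CPM in siComb and 89.8, 53.3 and 69.6 CPM in siP300, with 88.9 ± 15.1 CPM in siControl (log2 fold change -1.43 ± 0.30 SE, edgeR adjusted p = 0.0402). Mov10l1, a helicase, held 2.15, 5.57 and 3.85 CPM in siComb and 16.8, 8.92 and 16.2 CPM in siP300 (log2 fold change -1.86 ± 0.37 SE, edgeR adjusted p = 0.0354). Both stood nearer to siControl in the siP300 libraries than in the siComb libraries by group mean. Mael lost its call without siComb 1, siComb 2, siP300 1 or siP300 3, and Mov10l1 without siComb 1, siComb 3, siP300 1 or siP300 3. Hormad2, a meiotic chromosome protein, was the higher one (34.2 ± 1.66 CPM in siComb and 16.2 ± 1.45 CPM in siP300, SD, n = 3 each; edgeR adjusted p = 0.0432, lost in all 6 fits without 1 library).

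Among the lower genes with the smallest adjusted p, Laptm5 (a lysosomal membrane protein of blood cells) went against the lysosomal group. It held 8.70, 4.38 and 6.35 CPM in siComb and 33.4, 17.9 and 29.4 CPM in siP300, with 17.3 ± 1.35 CPM in siControl (log2 fold change -2.05 ± 0.30 SE, edgeR adjusted p = 0.0061). Hydin, a protein of the central pair in motile cilia (chr8:110266977-110610253, GRCm38), held 19.19, 13.5 and 12.5 CPM in siComb and 34.7, 51.5 and 45.6 CPM in siP300, both below the siControl mean of 110 ± 17.9 CPM (log2 fold change -1.54 ± 0.22 SE, edgeR adjusted p = 0.00582). Both genes kept their calls without any single library. Hydin overlaps Gm26832 on the opposite strand.

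A pair of glutathione transferases, enzymes that couple glutathione to reactive compounds, stood at higher levels in siP300 than in either siComb or siControl. Gsta1 (chr9:78230656-78242684, GRCm38) held 3.23, 6.76 and 0.963 CPM in siComb and 29.3, 11 and 36.2 CPM in siP300, with 4.33 ± 0.767 CPM in siControl (log2 fold change -2.81 ± 0.55 SE, edgeR adjusted p = 0.0354). Gsta2 (chr9:78331018-78355788, GRCm38) held 1.25, 5.37 and 2.79 CPM in siComb and 23.4, 16.5 and 9.06 CPM in siP300, with 2.31 ± 0.203 CPM in siControl (log2 fold change -2.38 ± 0.46 SE, edgeR adjusted p = 0.0328). Against siControl neither was called in siComb (edgeR adjusted p = 0.748 for Gsta1 and 0.485 for Gsta2), while both were higher in siP300 (edgeR adjusted p = 0.00199 and 0.000302). Gsta1, Gsta2 and the model Gm3776, which was also lower in siComb (log2 fold change -4.46, edgeR adjusted p = 0.0061), are near-identical copies, so the split of reads among them is uncertain.

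Gsta1 lost its call without siComb 1, siComb 3, siP300 1 or siP300 3, and Gsta2 without siComb 1, siComb 3 or siP300 1. Over the whole family, taken by symbol after values were seen, 1 of 21 tested members was higher and 2 were lower, beside 0.511% and 0.276% of all genes tested. The family's median log2 fold change was 0.25, beside -0.034 for all genes. The higher one was Gstt2, at 26.4, 69.2 and 63.4 CPM in siComb and 15.7, 24.1 and 13.4 CPM in siP300 (edgeR adjusted p = 0.0469, lost in 4 of the 6 fits without 1 library).

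Further lower genes of large fold were Mymx, a small protein of muscle cell fusion, at 5.02, 5.57 and 3.08 CPM in siComb and 12.2, 35.9 and 17.2 CPM in siP300 (log2 fold change -2.25, edgeR adjusted p = 0.0209). Tert, the catalytic subunit of telomerase, held 1.79, 2.78 and 4.24 CPM in siComb and 12.4, 7.05 and 13.01 CPM in siP300, with 7.60 ± 1.86 CPM in siControl (log2 fold change -1.88 ± 0.40 SE, edgeR adjusted p = 0.0402). Nrg3, a ligand of the receptor ERBB4, held 13.3, 7.56 and 5.39 CPM in siComb and 21.03, 26.4 and 48.4 CPM in siP300, both above the siControl mean of 2.03 ± 0.128 CPM (log2 fold change -1.87 ± 0.39 SE, edgeR adjusted p = 0.039). For these 3 genes no siComb library reached the lowest siP300 library. Mymx lost its call in 2, Nrg3 in 3 and Tert in 4 of the 6 fits without 1 library.

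Gata6os, a transcript divergent from the endoderm gene Gata6, held 16.0, 21.7 and 24.3 CPM in siComb and 55.4, 29.9 and 52.6 CPM in siP300, with 102 ± 10.3 CPM in siControl (log2 fold change -1.16 ± 0.22 SE, edgeR adjusted p = 0.0293). Chga (chromogranin A, a protein of secretory granules) was the 1 lower gene of 28 on a neuronal list, at 2.35 ± 0.625 CPM in siComb and 8.68 ± 2.32 CPM in siP300 (SD, n = 3 each; edgeR adjusted p = 0.0432). Zbp1, a sensor of Z-form nucleic acid, was the 1 lower gene of 24 interferon and double-stranded RNA genes, with 0, 2 and 6 counts in siComb and 41, 26 and 24 counts in siP300, against 26, 36 and 30 counts in siControl (edgeR adjusted p = 0.0402). The lower share of all genes tested was 0.276%, and 1 called gene does not describe a list. Gata6os lost its call in 4 and Chga and Zbp1 in 5 of the 6 fits without 1 library.

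Further genes near the threshold were Xkr9, a member of the XK-related membrane protein family, on the higher side, and Mfap5, Mtus2 and Zfp593 on the lower side, the last 3 named after their values were seen. Xkr9 held 12.3, 19.7 and 25.4 CPM in siComb and 3.69, 6.22 and 8.59 CPM in siP300, with 18.9 ± 3.18 CPM in siControl (log2 fold change 1.62 ± 0.36 SE, edgeR adjusted p = 0.0457, lost in all 6 fits without 1 library). Mfap5, a microfibril protein, held 12.2, 6.76 and 13.9 CPM in siComb and 21.4, 25.5 and 29.9 CPM in siP300 (edgeR adjusted p = 0.0354). Mtus2, a microtubule-binding protein, held 12.6, 19.9 and 31.6 CPM in siComb and 44.5, 65.0 and 40.9 CPM in siP300 (edgeR adjusted p = 0.0406). Zfp593, a zinc finger protein, held 21.5, 20.1 and 40.0 CPM in siComb and 65.7, 94.2 and 49.2 CPM in siP300, with 175 ± 23.8 CPM in siControl (edgeR adjusted p = 0.046). Zfp593 shares exon sequence with E130218I03Rik on the opposite strand, also called lower, and reads in the shared sequence cannot be told apart. The calls of Mfap5, Mtus2 and Zfp593 were lost in 3, 4 and 5 of the 6 fits without 1 library.

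**Figure D5:**
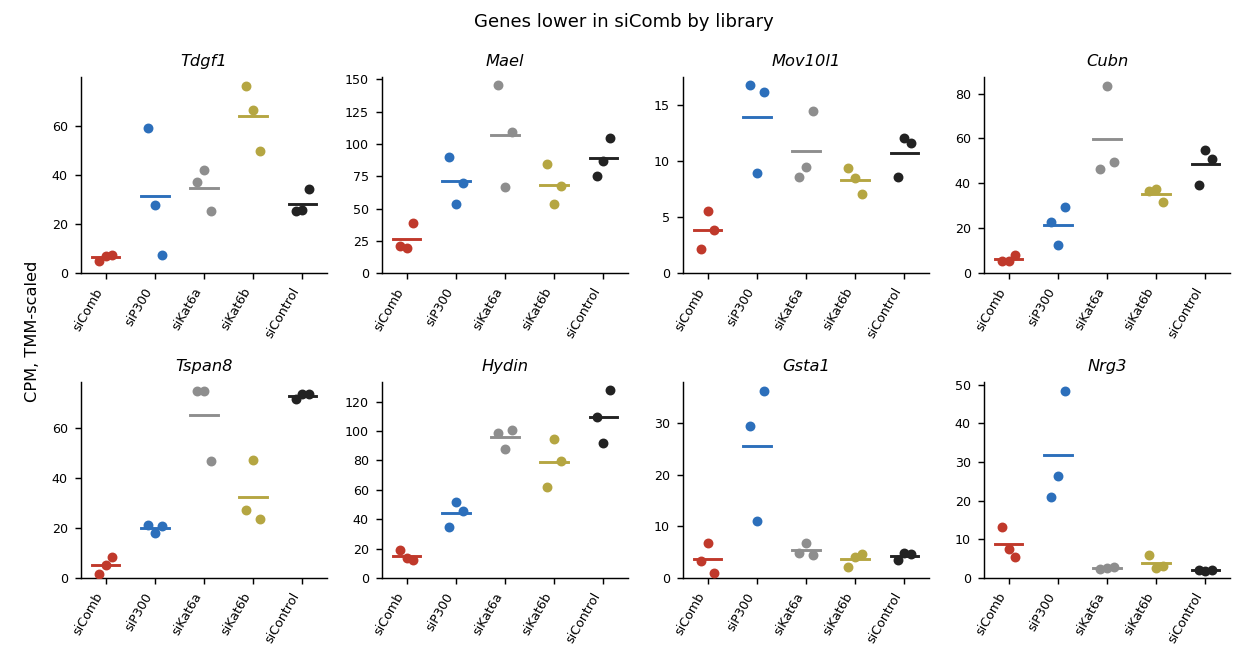
Level in CPM scaled by TMM (vertical axes, linear, from 0) of 8 genes that were lower in siComb than in siP300, in the 3 libraries of each siRNA group, with bars for group means. The siControl points lie near or above siP300 for Tdgf1, Mael, Mov10l1, Cubn, Tspan8 and Hydin by group mean or range, and below siP300 for Gsta1 and Nrg3.

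Many gene lists had no called member. Since 0.787% of all genes tested were called, lists of this size can hold none without differing from all genes. They included 77 ribosomal protein genes, of which 5 had a log2 fold change above 0, beside 9025 of all 19182 genes tested. The median of these 77 was -0.27, beside -0.034 for all genes. Rpl41, the ribosomal protein gene with the smallest adjusted p, stood at 2165, 2591 and 2515 CPM in siComb and 4097, 4621 and 2868 CPM in siP300 and was not called (edgeR adjusted p = 0.0831). No call was made among 40 deacetylase and corepressor genes, 34 DNA methylation and Polycomb genes, 27 genes of retroelement silencing, 29 histone genes, 31 p53 targets, 31 proteasome genes or 14 mitochondrially encoded genes. None was made among 27 oocyte genes, 39 genes of compaction, polarity and Hippo signalling, 24 genes of cholesterol synthesis, 21 of the miRNA machinery or 20 of the MYC network. At 3 libraries a group, a gene that missed the threshold is not shown to be equal between siComb and siP300.

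The single injections were set beside the combined one, since siKat6a against siControl and siKat6b against siControl share no library with siComb against siP300. With edgeR's quasi-likelihood test and Benjamini-Hochberg adjustment, siKat6a against siControl called 0 of 19182 genes, and siKat6b against siControl called 4 (0.0209%). None of those 4 was among the 151 genes. An unadjusted p under 0.05 was found for 410 genes in siKat6a and 2004 in siKat6b. Of the 151 genes, 86 had the same sign in siKat6a and 73 in siKat6b. The same-sign share over all genes was not counted, so these counts cannot be set against a background. Pearson's r across the 19182 genes was -0.0021 for siKat6a and -0.144 for siKat6b. Genes are not independent replicates, and these values are descriptions.

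The difference between the differences was also tested in the same fit, a test chosen after the data were seen. For siComb over siP300 against siKat6a over siControl it called 0 genes, while 1448 had an unadjusted p under 0.05, so no gene was shown to respond differently there. For siComb over siP300 against siKat6b over siControl it called 43 genes (0.224%), of which 21 were among the 151. These 21 included Ctsa, Dpp7, Scpep1, Glmp, Tpi1, Phlda2, Impact, Plp2, Lgals3 and Tdgf1. The test holds the same siComb and siP300 difference that picked the 151 genes. The overlap is therefore in part built in, and the differences below include the values by which the genes were picked. Ctsa had a log2 fold change of 1.47 ± 0.16 SE in siComb over siP300 and of 0.14 ± 0.16 SE in siKat6b over siControl, a difference of 1.34 ± 0.22 SE (edgeR adjusted p = 0.0307). Tdgf1 had a log2 fold change of -2.29 ± 0.48 SE in siComb over siP300 and of 1.18 ± 0.45 SE in siKat6b over siControl, a difference of -3.47 ± 0.66 SE (edgeR adjusted p = 0.0387). Against siControl itself, 7036 genes (36.7%) were called in siComb and 6789 (35.4%) in siP300, 2 comparisons that share the siControl libraries.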

How the data were processed

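Whole-number counts per gene were deposited by the authors. Per the submitters' processing notes, STAR 2.7.11a, featureCounts, Subread 2.0.6, MultiQC and Scanpy 1.8.2 were used, and the builds mm10 and GRCh38 are named with no role. For the annotation, the strand setting, the handling of read pairs and the counting of MERVL, the sources used here give nothing. Of nonzero counts in the 6 libraries, 83.8 to 85.4% were even, as would arise if both reads of a pair were counted, and replicates differed beyond sampling noise (chi-square per degree of freedom 20.9 to 49.2). Intervals and SDs cover these libraries only.

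Groups came from the sample titles. Genes passing filterByExpr (minimum count 10) were fitted over 15 libraries of the siRNA family with edgeR 4.0.16 (TMM, quasi-likelihood, R 4.3.3), which share 1 estimate of the spread. P values were adjusted by Benjamini-Hochberg over all genes tested, with a threshold of 0.05. CPM values of genes are scaled by TMM, and those of marker sums use library totals. DESeq2 1.42.0, limma 3.58.1 (voom with sample weights), other scalings and filters and left-out libraries were alternatives. Library measures were tested by exact permutation, two-sided (SciPy 1.17.1).

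Replicate numbers were not used as pairs. Members and lists were chosen with earlier results of these data known. Genes were named by a rule: the 4 acetyltransferase genes and MERVL always, the 12 higher and 12 lower genes of largest fold among called genes with at least 10 CPM and libraries that do not overlap, the 6 and 6 of smallest adjusted p, and up to 3 per list. Not all are written out, some genes are not reported here, and genes outside the rule are said to be so or were members of counted groups. Positions and overlapping exons are from GENCODE vM21 (GRCm38, the build called mm10), and promoters from RefSeq (GRCm38.p6). The 12 libraries of the inhibitor family were used only in 1 alternative.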

Additional observations from a re-analysis of the deposited data

How the results depend on the processing

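The 98 higher and 53 lower genes became 372 and 246 with DESeq2, 24 and 11 with limma-voom with sample weights, 367 and 365 with no filter on low counts, and 0 and 0 in a fit of the 6 compared libraries, where fewer libraries estimate the spread. Library size alone gave 47 higher, the 2-fold threshold 52 higher, and leaving out library 2 of both groups 53 higher. Leaving out each library in turn gave 15 to 107 higher and 11 to 58 lower genes. With a replicate block they were 32 and 16. Same-numbered libraries correlated in their deviations from the group means at 0.0942, 0.412 and 0.111 over 16935 genes, and siComb 1 and siComb 3 correlated best with another number (0.216 and 0.146), so the numbers were not taken as pairs. The direction reversed for MERVL-int without siComb 1 (0.394), siComb 3 (0.402) and siP300 2 (1.41), and for MERVL_2A-int (0.0375) and Tfe3 (-0.0271) without siP300 2. Over the fits without 1 library these 3 log2 fold changes ran from -2.63 to 1.41, from -0.383 to 0.0375 and from -0.0271 to 0.398. None of these passed a threshold, and the cause was not tested. All 58 called genes named kept their direction in every setting that tested them. In siComb minus siP300, the genes detected differed by -1126, by -928 after thinning and by -1453 to -639 with each library left out in turn, with the value nearest 0 without siP300 3. The mitochondrial share differed by -0.692 percentage points, and by -1.14 to -0.114 without 1 library, again nearest 0 without siP300 3. The MERVL-int level differed by -33.6 CPM of the library total, by -341 to 219 without 1 library, and lay above 0 without siComb 1, siComb 3 or siP300 2. Genes at a few counts are limited by depth.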
